A study of Mus musculus with 2 samples.

Results

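The genes described here encode the subunits of the proteasome and the proteins that cap, regulate or assemble it. They were all genes on the arrays whose RefSeq symbol begins with Psma to Psmg followed by a number, without the immunoproteasome subunits Psmb8, Psmb9 and Psmb10. There were 45 such genes, with 56 probes, among 20653 named genes and 39417 probes. By role they were 8 alpha and 8 beta subunits of the core, 9 subunits of the base, 8 subunits of the lid, 5 activators or inhibitors and 7 assembly chaperones.

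The RNA came from MIN6 cells, an insulin-secreting line derived from an insulinoma of a transgenic C57Bl/6 mouse, at passages 15-20. One culture had received lentivirus with PLVX-IRES-ZsGreen-mFTO, which carries the coding sequence of mouse FTO, an RNA demethylase associated with obesity. The control had received PLVX-IRES-ZsGreen, so both expressed a green fluorescent protein. Both had been transduced, in the presence of polybrene, with lentivirus packaged in 293T cells. The arrays asked which transcripts differ when FTO is overexpressed, with 1 one-color Agilent array per condition, so no value here has a replicate check and no test was made.

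Proteins to be destroyed are tagged with ubiquitin and degraded by the proteasome. Its barrel-shaped core is made of rings of alpha subunits, which gate the entry, around rings of beta subunits, which hold the protease sites. A regulatory cap sits on the barrel: the base contains ATPases that unfold the substrate, and the lid removes the ubiquitin chain. Beta cells make proinsulin in large amounts and send misfolded proinsulin from the endoplasmic reticulum to the proteasome.

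Signals are scanner intensities in arbitrary units, given first for the array labelled FTO and then for the array labelled control. Well above background were 82.0% and 84.9% of all probes, and no spot was saturated. The median spot signal was 292 and 237, and the dimmest probe well above background had 13.1 and 10.1. The only Fto probe had signals of 7301 and 5179, a normalized log2 difference of 0.06 (spot error 0.20). Overexpression was therefore not seen at this probe, and whether it lies within the coding sequence carried by the vector was not determined. The directions given here rest on the labels alone. All 12 beta cell markers were well above background on both arrays, with Ins2 at 276722 and 320363. Gcg, the glucagon gene of alpha cells, was also bright, at 257411 and 243558. The brightest of 4 acinar markers reached 73.0 and 84.7 and the brightest of 2 leukocyte markers with a probe 167 and 170. In such bulk RNA, fewer cells of a type and less RNA per cell cannot be told apart.

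The proteasome genes were expressed in both cultures and differed little between them. Of the 45 genes, 43 were well above background on both arrays, with signals of 2507 to 211884 (median 40488) and 2203 to 166238 (median 28499). Before normalization all 43 were higher on the array labelled FTO, by 0.19 to 0.76 on the log2 scale, as was the array as a whole. The median raw log2 ratio was 0.41 over the members and 0.37 over all named genes tested. It was 0.43 over the named genes with a mean log2 signal above 10. After quantile normalization, which gives both arrays the same distribution of signals, the median log2 difference (array labelled FTO minus array labelled control) of the 44 members tested was 0.02, or 1.01-fold, against 0.006 for the 18513 named genes tested. The genes tested had a probe well above background on 1 or both arrays, and the brightest such probe gave the value of the gene. With 75th percentile scaling, the median of the members was -0.02 and that of all named genes -0.06.

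**Figure D1:**
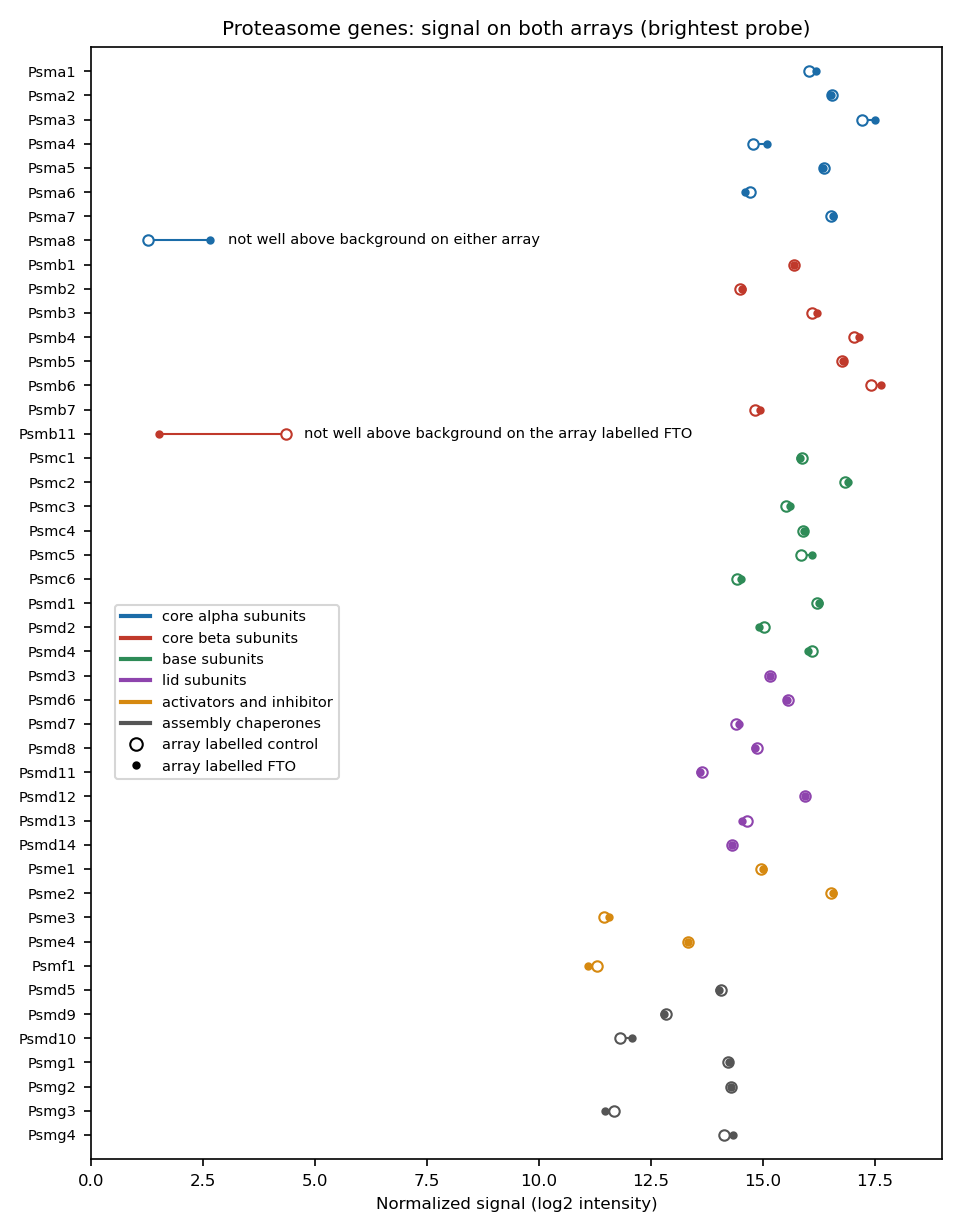
Signal of the brightest probe of each proteasome gene on both arrays after quantile normalization (log2 intensity), by role. Most pairs lie close together, with Psma8 and Psmb11 far below the other genes.

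By its measured value 1 member passed 2-fold, Psmb11, which was lower. That is 2.27% of 44 members, against 3.21% of all named genes tested. The differences of 27 members (61.4%) were above 0, against 51.6% of named genes. The 6 genes Psma3, Psma4, Psmb6, Psmc5, Psmd10 and Psmg4 were higher on the array labelled FTO by more than their spot error, 13.6% against 14.7% of named genes. Psmb11 and Psmf1 were lower by more than their spot error, 4.55% against 13.9%. The members are bright, and among genes with a mean log2 signal above 10 6 of 43 members were higher by more than their spot error, against 8.08% of 9991 named genes, and 1 of 43 (2.33%) was lower, against 6.52%. By this count the share of bright members that were higher was above that of bright genes. The comparison was chosen after values were seen and depends on the normalization. Of the 7 bright members beyond their spot error, 4 remained so with 75th percentile scaling. The spot error is the error of both spots combined, as the scanner software estimates it on the log2 scale. It was 0.20 for most member probes and nearly the same for all bright probes printed once. There it acts as a fixed limit and not as a noise measured for each gene. Over 198 bright probes printed 10 times, the SD of the raw log2 difference between spots had a median of 0.06. Both values cover the reading of spots and not the spread between cultures.

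Among the 43 genes well above background on both arrays, the differences ran from -0.21 for Psmf1 to 0.32 for Psma4, with an SD of 0.12 between genes, and none passed 0.5. For comparison, the SD was 0.15 over 9991 named genes with a mean log2 signal above 10, a level that 97.7% of the members tested passed. The middle 50% of these brighter genes lay between -0.08 and 0.10, and the middle 50% of the 43 members between -0.03 and 0.09.

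**Figure D2:**
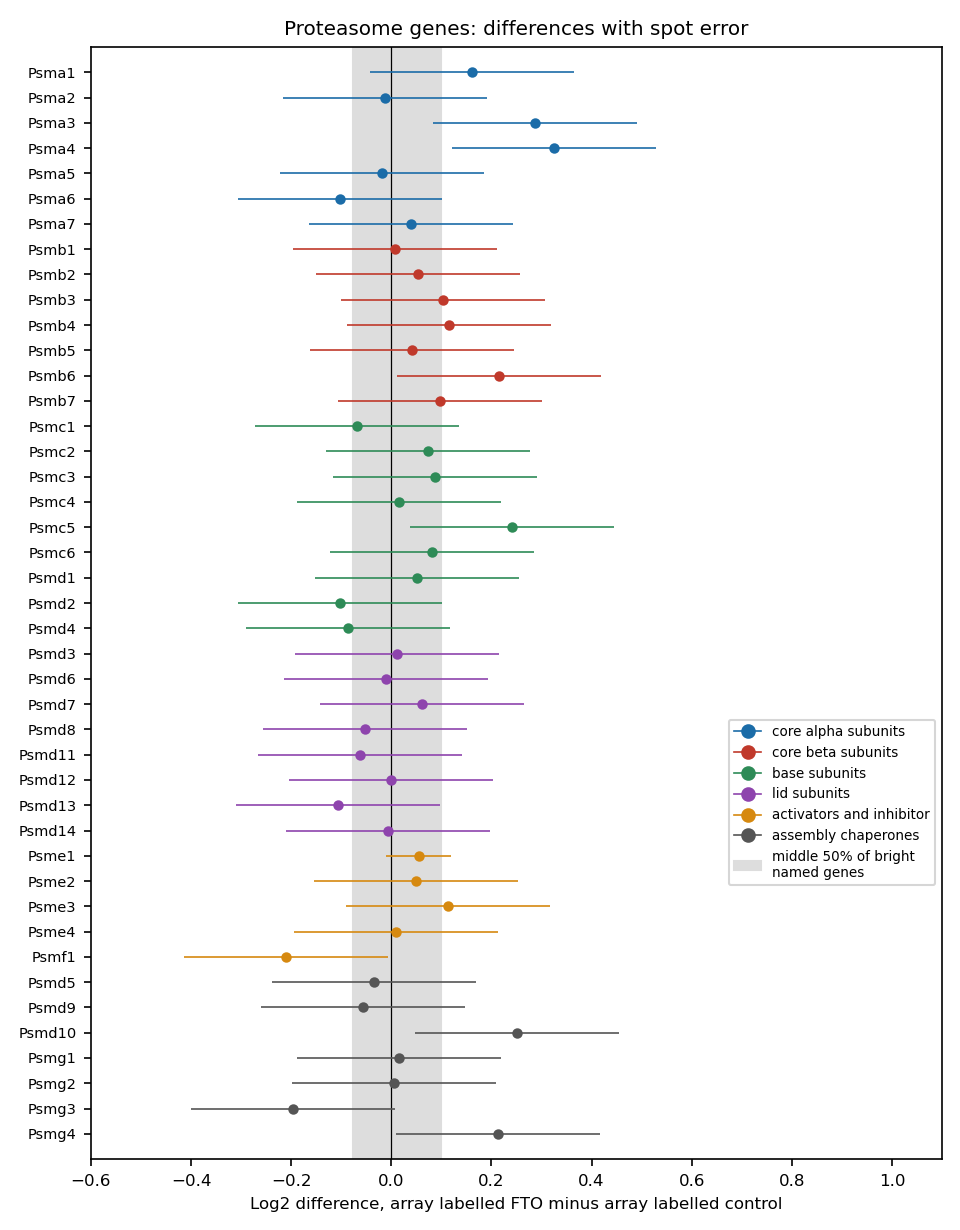
Log2 difference (array labelled FTO minus array labelled control) of the 43 proteasome genes well above background on both arrays. Points are single genes, lines are 1 spot error to each side and the grey band is the middle 50% of brighter named genes; 7 of the 43 lines do not reach 0.

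The core beta subunits hold the protease sites of the barrel. Psmb6, the subunit with caspase-like activity, had signals of 211884 and 166238, a log2 difference of 0.22 (1.16-fold). Psmb5, which has the chymotrypsin-like activity and is the target of the drug bortezomib, had 125661 and 100327, a difference of 0.04. Psmb7, with trypsin-like activity, had 36348 and 25030, a difference of 0.10. The difference of Psmb6 was just beyond the spot error and those of Psmb5 and Psmb7 were within it. The structural subunits Psmb1, Psmb2, Psmb3 and Psmb4 lay between 0.01 (Psmb1, with signals of 61166 and 46023) and 0.11. All 7 genes were above 0, with a median of 0.10, or 0.07 with Psmb11 as the eighth. With each array scaled to its 75th percentile instead, Psmb6 was at -0.08 and Psmb5 at -0.10. The median of the 7 genes was then -0.01, with 3 above 0, and that of the 8 was -0.05, so these directions depend on the normalization.

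Psmb11, the beta subunit of the thymoproteasome, which is known from thymic cortical epithelium, was near background. Its signal was 20.2 on the array labelled control, where it was well above background, and 3.20 on the array labelled FTO, where it was not. Since the lower value is only a limit, the difference is given as at least 1.57-fold lower on the array labelled FTO. The measured log2 difference of -2.85 had a spot error of 1.46, against 0.20 for most member probes.

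The promoters of 3 beta genes are shown, those of the catalytic subunits Psmb5 and Psmb6, which had the motif below, and that of Psmb11, the dim gene next to Psmb5 on chromosome 14. Each is the 250 bases before the transcription start from RefSeq, 5′ to 3′ on the strand of the gene, in assembly GRCm38.p6. Psmb5 lies on the minus strand (chr14:54617996-54618245), and Psmb6 (chr11:70525107-70525356) and Psmb11 (chr14:54625060-54625309) on the plus strand. Capitals mark TGACNNNGC, the core of the antioxidant response element bound by the NRF1 and NRF2 factors, in Psmb5 and Psmb6, and CCAAT in Psmb11.
Psmb5: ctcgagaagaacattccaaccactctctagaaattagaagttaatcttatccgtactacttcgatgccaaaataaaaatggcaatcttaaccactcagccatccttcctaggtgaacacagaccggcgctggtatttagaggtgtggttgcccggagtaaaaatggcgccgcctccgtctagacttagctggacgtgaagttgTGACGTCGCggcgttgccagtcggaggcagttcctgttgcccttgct
Psmb6: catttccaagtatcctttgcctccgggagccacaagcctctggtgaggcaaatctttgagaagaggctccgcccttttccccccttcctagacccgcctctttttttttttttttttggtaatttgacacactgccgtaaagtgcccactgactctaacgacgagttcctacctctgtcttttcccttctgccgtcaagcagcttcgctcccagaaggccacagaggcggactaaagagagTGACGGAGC
Psmb11: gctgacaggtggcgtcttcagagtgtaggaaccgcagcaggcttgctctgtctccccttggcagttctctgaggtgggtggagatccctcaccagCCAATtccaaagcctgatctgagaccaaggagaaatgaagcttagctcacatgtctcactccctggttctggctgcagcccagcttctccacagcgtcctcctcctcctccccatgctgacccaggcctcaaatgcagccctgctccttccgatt
Promoters of 37 of the 45 member genes were found, 40 in all. Over 300 bases, from 250 before to 50 after the start, TGACNNNGC on either strand was present in 6 of 40 member promoters (15.0%) and in 12.4% of all 32851 promoters. The CCAAT motif was present in 13 of 40 (32.5%) and in 37.4% of all promoters. A match describes the letters only, and no binding was measured.

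The alpha subunits form the outer rings of the core. Psma4 had the highest difference of the 43 genes, with signals of 40488 and 23944, a log2 difference of 0.32 (1.25-fold). Its other probe gave 20732 and 14483, a difference of 0.08, so the probes of this gene were apart by more than the spot error of 1 difference. Psma3 followed with 196325 and 142364, a difference of 0.29. With 75th percentile scaling Psma3 was at 0.04. Psma6 was lowest, with 29036 and 22995, a difference of -0.10. The other 4 alpha subunits well above background lay between -0.02 for Psma5 and 0.16 for Psma1. The median of the 7 alpha subunits tested was 0.04, with 4 above 0 and 5 within their spot error, and it was -0.08 with 75th percentile scaling and -0.0042 with cyclic loess. Psma8, an alpha subunit known from the testis, gave 6.11 and 2.12. Neither signal was well above background, so it has no fold.

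The base was similar. Psmc5, one of its 6 ATPases, had signals of 79479 and 51711, a log2 difference of 0.24 (1.18-fold), and was the only base gene beyond its spot error. Psmd2, a scaffold subunit, was lowest at 35919 and 28499, a difference of -0.10. The median of the 9 base genes was 0.05 with 6 above 0, and that of the ATPases Psmc1 to Psmc6 was 0.08, the other 5 ATPases lying between -0.07 (Psmc1) and 0.09 (Psmc3). With 75th percentile scaling the base median was -0.03. Psmc3 had probes on either side of 0, one with 57530 and 40615 (0.09) and one with 37211 and 30829 (-0.16).

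The lid genes lay closest together of the 6 groups. All 8 ran from -0.11 for Psmd13 (27565 and 21876) to 0.06 for Psmd7 (26274 and 18494), with an SD of 0.05, and were within their spot error. Psmd14, the enzyme that cuts ubiquitin chains from the substrate, had 23567 and 17523, a difference of -0.01. The median of the lid was -0.009, with 2 genes above 0, and was 0.02 with cyclic loess.

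The activators open the core without the ubiquitin-binding cap. Psme1 and Psme2, the interferon-inducible PA28 subunits, had log2 differences of 0.05 each, from signals of 38179 and 27156 for Psme1 and 108208 and 84309 for Psme2. Psme3, the nuclear PA28 gamma, had 3488 and 2449, a difference of 0.11. Psme4, the PA200 activator, had 12058 and 8902, a difference of 0.01. The other Psme4 probe was dimmer, with 463 and 317, a difference of 0.21, and the mean of both probes was 0.11. By their brightest probes none of these 4 genes was beyond its spot error, and Psme2 was at -0.07 with 75th percentile scaling. Psme1, with a spot error of 0.06, was beyond it at 0.07 with that scaling and at 0.10 with cyclic loess. Psme1 was printed 10 times, and before normalization its spots read 34392 to 40840 and 25857 to 28002. The raw log2 ratio was 0.49 ± 0.05 (SD, n = 10 spots of the same 2 arrays). Psmf1, the inhibitor PI31, had the lowest difference of the 43 genes, with 2507 and 2203, a log2 difference of -0.21 (0.865-fold). It was the lowest member under each of the 9 other settings too, from -0.24 to -0.17.

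The assembly chaperones included genes at both ends. Psmd10, the oncoprotein gankyrin, had signals of 4986 and 3124, a log2 difference of 0.25. Its other probe gave 4601 and 3235, a difference of 0.09. Psmg4 had 24227 and 15392, a difference of 0.21, and Psmg3, which acts with it in the assembly of the alpha ring, had 3286 and 2842, a difference of -0.20. These partners thus lay on opposite sides of 0, Psmg4 just beyond its spot error and Psmg3 within it. With 75th percentile scaling Psmg3 was at -0.22 and with cyclic loess at -0.23, both beyond its spot error. The others, Psmd5, Psmd9, Psmg1 and Psmg2, lay between -0.06 and 0.01. The median of the 7 chaperones was 0.005, with 4 above 0.

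**Figure D3:**
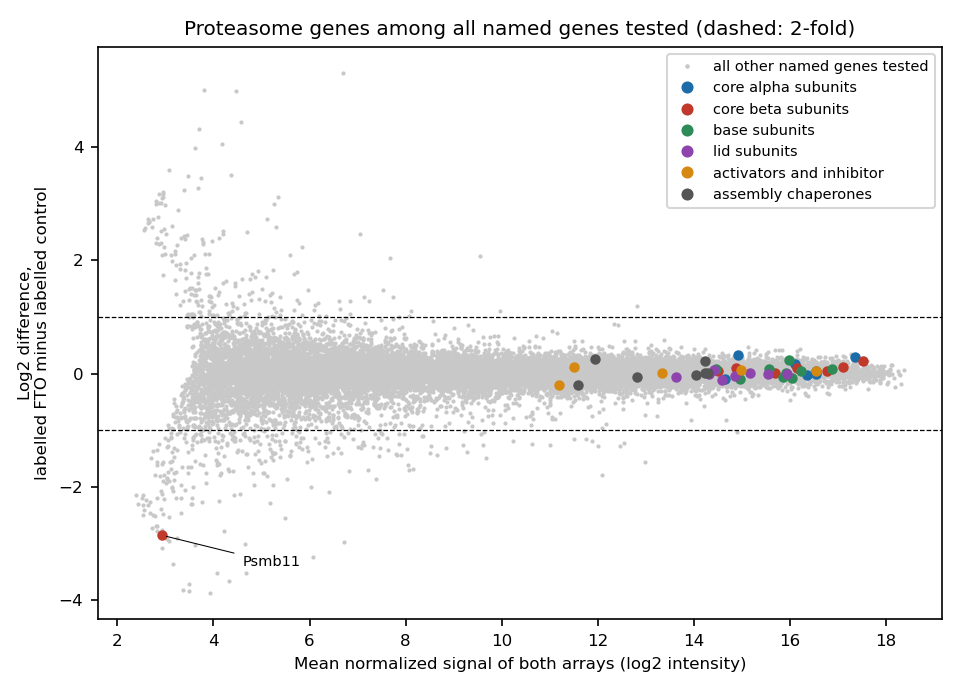
Mean log2 signal of both arrays (horizontal) against the log2 difference (vertical) of the proteasome genes, over all named genes tested. All but Psmb11 lie on the bright side of the cloud, where the SD of the differences of named genes with a mean log2 signal above 10 was 0.15, against 0.39 over all.

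There were 11 genes with more than 1 probe tested. The brightest and the other probe were 0.02 to 0.25 apart, with a median of 0.09. The gap was over the spot error of 1 difference (0.20) for Psma4 and Psmc3, and the sign was the same in 6 of the 11. The error of a gap between 2 differences is larger and was not computed. The surface of the arrays was uneven as well. Of 35 blocks, 6 had lost signal in dim repeated probes on the array labelled FTO and 2 on its control. The brightest probes of 10 members lay in these blocks, Psma3, Psma4 and Psmd10 among them. All 10 were brighter than those repeated probes, so a loss at their brightness was not measured. Those 10 had a median difference of 0.06, and the 33 others well above background on both arrays 0.01. The part of the surface in the values was not tested, but without these blocks Psma4 was at 0.08, from its other probe.

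Of the related genes, the 3 immunoproteasome subunits, which replace catalytic beta subunits after interferon, were all above 0 and within their spot error. Psmb8 had 3918 and 2601 (log2 difference 0.18), Psmb9 had 3766 and 2614 (0.12), and Psmb10 had 9818 and 6451 (0.18). A further 28 genes of the ubiquitin-proteasome pathway were tested, and none passed 2-fold. Their median was 0.06, with 20 (71.4%) above 0. The share above 0 was 51.6% of all named genes tested and 53.6% of those with a mean log2 signal above 10. Of the 28, 6 (21.4%) were higher by more than their spot error, and none was lower. The share higher was 14.7% of all named genes and 8.08% of those with a mean log2 signal above 10. The share lower was 13.9% and 6.52%. Most but not all of the 28 were that bright. The 6 were Ngly1 (0.24), Txnl1 (0.29), Ube3c (0.22), Ubqln2 (0.23), Uchl5 (0.16) and Vcp (0.23). Uchl5 was printed 10 times and had a spot error of 0.06, against 0.20 for the others named. The probes of Ube3c, Ubqln2 and Vcp lay in blocks where dim repeated probes had lost signal, as did 6 of the 28 in all. The part of the surface in these values was not tested. Nfe2l1, which encodes the NRF1 factor, was at -0.06, and Ngly1 and Ddi2, which process that factor, were at 0.24 and -0.05.

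**Figure D4:**
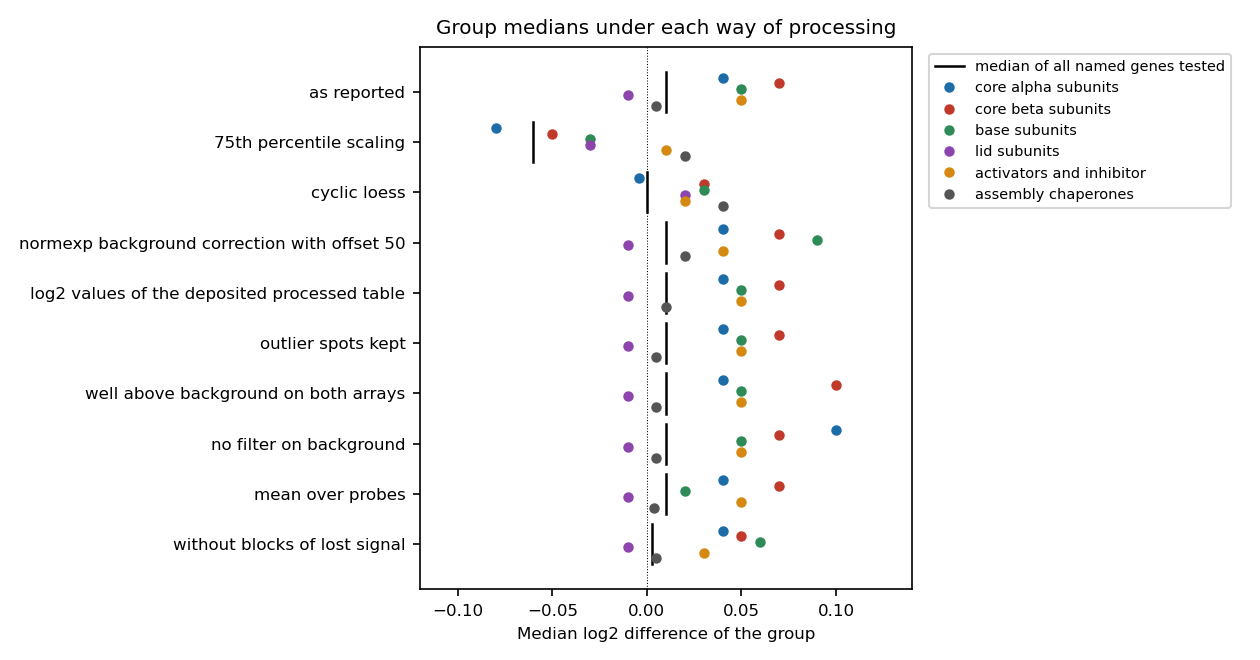
Median log2 difference of each proteasome group under the reported processing and 9 alternatives, with the median of all named genes tested as a black bar. Every median stays between -0.08 and 0.10, and the alpha, beta and base medians are below 0 with 75th percentile scaling.

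The brightest members depended most on the normalization. The 13 genes with a mean log2 signal above 16 had a median of 0.05 with quantile normalization, with 10 above 0, and of -0.08 with 75th percentile scaling, with 3 above 0. The 30 other genes well above background on both arrays had a median of 0.01 under both. Of the 7 genes beyond their spot error on both arrays, Psma4, Psmd10, Psmg4 and Psmf1 remained so with 75th percentile scaling and Psma3, Psmb6 and Psmc5 did not. Psma3 and Psmb6 also came within it with cyclic loess, Psmc5 and Psmf1 with normexp background correction, and Psma4 and Psmd10 when the probes of a gene were averaged. Psmg4 was the only one beyond its spot error under all 9 alternatives. Psme1 and Psmg3 came to lie beyond theirs with 75th percentile scaling and with cyclic loess.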

How the data were processed

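Total RNA of MIN6 cells was labeled with Cy3 and hybridized to 1 array per condition. The deposited spot tables hold the intensity of each spot from Agilent Feature Extraction 11.0.1.1, background-subtracted, detrended and not normalized between arrays. The authors also deposited log2 values of 33870 probes, quantile normalized in GeneSpring by the methods, which served as an alternative.

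Control spots and outlier spots (148 on the array labelled FTO, 141 on the array labelled control) were dropped, spots of a probe were averaged as log2, and arrays were quantile normalized (limma 3.58.1, R 4.3.3, checked on simulated arrays). Later steps used Python 3.11.15, pandas 2.3.3, numpy 2.4.6 and matplotlib 3.10.9. Symbols came from matching accessions to RefSeq (GRCm38.p6), which named 27224 of 39417 probes. Signals are processed intensities, and differences are on the normalized log2 scale. For Psmb11, the lowest signal well above background on that array stood in for the value not well above background, which gives no firm bound. No test was made. Precision is limited by having 1 array per condition.

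A block had lost signal where at least 15% of spots of 79 repeated probes lay more than 0.5 (log2) below their median. These 79 probes were dim, with a median log2 signal of 4.5 to 8 on the array labelled control. The array design is of an older assembly, so coordinates are given only with promoters. Values were given for the extremes of each group, catalytic subunits, activators and inhibitor, genes past 0.5, genes dim on either array, and genes whose probes differed by over 0.5. Members and lists were chosen with earlier results of these data known. Psma3, Psmg4, Psmd14, second probes, named related genes, the shares among bright genes, the block rule and the split at 16 were chosen after values were seen.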

Additional observations from a re-analysis of the deposited data

How the results depend on the processing

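The 9 alternatives were 75th percentile scaling, cyclic loess, normexp with an offset of 50, the deposited log2 table, keeping outlier spots, requiring signal on both arrays, no filter, the mean over probes and leaving out the blocks that had lost signal. The median over all members stayed between -0.02 and 0.03, and 19 to 29 members were above 0. With 75th percentile scaling the median of all named genes moved to -0.06, and the medians were -0.08 for the alpha, -0.05 for the beta and -0.03 for the base subunits. Without a filter the alpha median was 0.1, with Psma8 included. The count of members past 2-fold was 0 with normexp, 0 when signal on both arrays was required and 2 without a filter (Psma8 and Psmb11). With the stand-in for its lower value, Psmb11 ran from 1.12-fold lower with normexp to 2.08-fold lower with 75th percentile scaling. Of all named genes, 594 had a tested probe past 2-fold with the main processing used here (243 higher, 351 lower). This count was 62 with normexp (18 higher, 44 lower), 257 with signal on both arrays, 1111 without a filter, 304 without the blocks and 869 with 75th percentile scaling (144 higher, 727 lower; some genes had probes in both directions). Psmb6 reversed to -0.08 with 75th percentile scaling. The cause of these shifts was not tested. No paired analysis was possible because each condition has 1 array. Dim probes such as that of Psmb11 limit what these arrays measure, and the spread between cultures is unknown.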
